A study of Mus musculus with 28 samples.

Results

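Levels of messenger RNA at 8 h were compared with levels at 0.5 h in CTLL2 cells treated with B16F0 exosomes, in 6 of the 28 libraries of the series, 3 at each time. CTLL2 is a single established mouse cytotoxic T cell line that grows only with interleukin-2 (IL-2), labelled C57BL/6, and B16F0 is a mouse melanoma line. All cells had grown for 24 h in complete medium before the change to fresh medium at time 0. The fresh medium held exosomes at 0.2 mg/ml, carried in PBS, in the treated cultures at 8 h and 0.5 h, and none in the untreated cultures at 8 h and 0.5 h, which are set beside them. The time after exosome addition is therefore also the time after the medium change. Each group had 1 library of Set1, labelled Batch 1, and 2 of Set2, labelled Batch 2, and the study's design text calls them biological replicates. The values are normalized counts (read counts divided by a size factor for each library), and 14828 of 30608 genes were high enough to test. A change is given on the log2(normalized count + 1) scale with its standard error (SE), as 8 h minus 0.5 h, and a gene is called where the limma p, adjusted over all 14828 genes by the Benjamini-Hochberg method, is below 0.05.

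Exosomes are small vesicles shed by cells, which carry proteins and RNA of the cell they came from. Fresh medium renews growth factors and cytokines. Their receptors act through kinase cascades: ERK kinases switch on immediate early genes within minutes, and the IL-2 receptor acts through JAK kinases and the factor STAT5. Both pathways also switch on their own inhibitors, the DUSP phosphatases and the SOCS proteins.

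The 6 libraries held 6072984 to 16949757 recovered reads, so that 3 reads were worth 2.69 to 7.47 normalized counts; this covers counting error only. Of 15 listed cytotoxic T cell markers, 0 were at 0 throughout either group. This alone does not mark a cell type, since 0 of 8 melanocyte markers were either. The summed T cell markers were 111949 to 140660 at 8 h and 122780 to 160774 at 0.5 h. The melanocyte sums were 88.9 to 112 at 8 h and 62.3 to 160 at 0.5 h. The CD3 subunit Cd3e lay between 3490 and 3808 at 8 h and between 3557 and 4047 at 0.5 h. The CD8 chain Cd8a was low, at 64.5 to 114 normalized counts at 8 h and 61.8 to 99.6 at 0.5 h, and Cd4 was at or below 35.5 throughout. Skeletal muscle transcripts set replicates 1 and 3 at 0.5 h apart. The muscle actin Acta1 had 2.09, 1.84 and 1.79 normalized counts at 8 h, against 194, 0.978 and 327 at 0.5 h in replicates 1, 2 and 3. The summed level of all 19 muscle markers was 1342 to 2705 at 8 h and 1647 to 5119 at 0.5 h, and overlapped. Of 18 muscle markers tested, 0 were called. Ckm, Mylpf and Neb make up most of the sum at 8 h. Without them, the summed level of the other 16 was 43.2 to 114 at 8 h, against 1709, 62.6 and 2686 at 0.5 h. Muscle transcripts are also above this level in untreated 8 h replicates 1 and 2. Of the markers tested of macrophages and dendritic cells (3), B cells (2), fibroblasts (7), erythroid cells (1) and melanocytes (5), 0 were called. Of the 15 cytotoxic T cell markers tested, 2 were lower (Gzmb and Prf1, given below) and 0 higher, where 1.95% of all genes were lower. The summed fibroblast and matrix markers were 31125 to 33437 normalized counts at 8 h, against 29255 to 30932 at 0.5 h, and did not overlap. That list holds Thy1, which is also a member of the T cell identity list below. Thy1 alone was at 20365 to 23062 at 8 h and 19563 to 20140 at 0.5 h, so it makes up most of the sum. It was not called (change 0.15). The part of these markers in the results was not tested. The macrophage and dendritic cell sums, 7147 to 10119 at 8 h and 6213 to 9474 at 0.5 h, and the B cell sums, 14.7 to 82.6 at 8 h and 11.7 to 129.5 at 0.5 h, overlapped. The part of the muscle transcripts in the results below was not tested; where leaving out all 8 libraries of the series with over 10 normalized counts of Acta1 ended a call, this is given beside it.

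At 8 h of exosome treatment against 0.5 h, 345 genes (2.33%) were called: 56 were higher (0.378%) and 289 lower (1.95%) at 8 h. Among the called genes the lower ones also changed more, as a description. Of the 289 lower genes 222, and of the 56 higher genes 51, averaged 100 or more normalized counts over the 6 libraries. The part of abundance in the size of the called changes was not tested. The median change was -0.61 among the lower genes and 0.35 among the higher genes, and 52 of the 289 lower genes but 3 of the 56 higher genes passed 2-fold; over all genes tested the median was 0.00. In such bulk samples a change in the cells present and a change in RNA per cell cannot be told apart. All libraries at 8 h lay above all at 0.5 h for 22 of the 56 higher genes (5.48% of all genes tested did so) and below them for 153 of the 289 lower genes (5.92% of all). The direction was the same in Set1 and Set2 for 341 of the 345. These genes were called on the same Set1 and Set2 libraries together, so this is no independent support. The counts depended on single libraries: 68 genes were called without 8 h replicate 2, 94 without 8 h replicate 3, 91, 144 and 210 without 0.5 h replicates 3, 2 and 1, and 1164 without 8 h replicate 1. With the replicate number as a block, 44 genes were called (2 higher and 42 lower), 43 of them among the 345. That fit used only the 12 libraries at 0.5 and 8 h, which without a block gave 136 calls. A call that ended with the block is therefore not ascribed to pairing. Without the libraries with muscle transcripts, 63 were called, all lower, 60 of them among the 345.

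Egr1, Hbegf and Mycn fell more than 2-fold. Egr1, a zinc finger transcription factor and immediate early gene, had 63.8, 51.5 and 37.6 normalized counts at 8 h, against 204, 236 and 153 at 0.5 h. Every 8 h library lay below every 0.5 h library, and the change was -1.95 (SE 0.24; limma adjusted p = 2.03e-05). Hbegf, an EGF-family growth factor cut from the cell surface, had 70.0, 98.4 and 115.5 at 8 h, against 206.8, 382 and 266 at 0.5 h, a change of -1.56 (SE 0.16; limma adjusted p = 1.88e-06). Mycn, a MYC-family transcription factor, had 399, 390 and 355 at 8 h, against 874, 1110 and 1059 at 0.5 h, and fell by 1.40 (SE 0.11; limma adjusted p = 2.40e-08). Its relative Myc was not called, with 1426, 2784 and 2905 at 8 h, against 1664, 3434 and 3310 at 0.5 h (change -0.24, SE 0.07; limma adjusted p = 0.0631). Egr1, Hbegf and Mycn remained called without each of the 6 libraries in turn, with the replicate block, and without the libraries with muscle transcripts. Of the 23 immediate early genes tested, Egr1 alone was called, and the median change of the list was -0.15. Changes in the list ran from -1.95 to 0.24. Fos and Egr2, given after their values were seen, had changes of -1.95 and -1.20 without being called. In untreated cells these were -2.21 and -1.46.

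Among 13 tested genes of ERK feedback, 3 were lower and 1 higher, with a median of -0.23. Dusp6, a phosphatase that takes the activating phosphates off ERK, had 240, 155 and 164 normalized counts at 8 h, against 563, 408 and 444 at 0.5 h (change -1.35, SE 0.14; limma adjusted p = 1.88e-06). Dusp4, a nuclear MAP kinase phosphatase, had 360, 494 and 474 at 8 h, against 511, 935 and 856 at 0.5 h (change -0.76, SE 0.10; limma adjusted p = 8.72e-05). In both, the groups did not overlap. Dusp1, which acts on JNK and p38 as well, changed by -0.93 (SE 0.18; limma adjusted p = 0.00656). Spry2, a Sprouty inhibitor of receptor tyrosine kinase signalling, went the other way, with 975, 1030 and 993 at 8 h, against 712, 844 and 767 at 0.5 h (change 0.37, SE 0.08; limma adjusted p = 0.0129). The replicate block ended the calls of Dusp1 (adjusted p = 0.0683) and Spry2 (adjusted p = 0.0914). Without 8 h replicate 2 or 0.5 h replicate 3 neither Dusp1 nor Spry2 was called, Dusp1 was also lost without 0.5 h replicate 2 and Spry2 without 0.5 h replicate 1 and without the libraries with muscle transcripts (adjusted p = 0.305).

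Several targets of IL-2 and STAT5 were lower at 8 h. Of 18 tested, 8 were lower and 0 higher, with a median of -0.44; the 8 were Osm, Socs3, Lta, Cish, Pim2, Socs1, Tnfrsf9 and Pim1. Cish and Socs3 encode SOCS-family inhibitors of JAK kinase signalling, Lta encodes lymphotoxin alpha, a TNF-family cytokine, and all 3 promoters hold the STAT spelling TTCNNNGAA, so their sequences are shown from 250 bases before to 30 bases after the RefSeq start (GRCm38.p6), 5′ to 3′ on the gene's strand, with the matches in capitals. Cish is chr9:107296409-107296688 on the plus strand, Socs3 is chr11:117969337-117969616 on the minus strand and Lta is chr17:35205322-35205601 on the minus strand.
Cish: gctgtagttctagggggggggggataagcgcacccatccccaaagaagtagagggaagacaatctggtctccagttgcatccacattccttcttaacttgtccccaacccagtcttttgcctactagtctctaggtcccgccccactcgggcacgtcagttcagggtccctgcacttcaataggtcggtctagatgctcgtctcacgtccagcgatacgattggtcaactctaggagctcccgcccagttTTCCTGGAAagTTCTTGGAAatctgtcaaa
Socs3: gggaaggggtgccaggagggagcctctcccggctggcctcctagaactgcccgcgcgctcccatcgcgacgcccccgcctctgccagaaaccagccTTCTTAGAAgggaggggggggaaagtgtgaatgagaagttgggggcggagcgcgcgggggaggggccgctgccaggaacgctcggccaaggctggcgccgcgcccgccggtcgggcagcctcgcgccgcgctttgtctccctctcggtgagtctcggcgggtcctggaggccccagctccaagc
Lta: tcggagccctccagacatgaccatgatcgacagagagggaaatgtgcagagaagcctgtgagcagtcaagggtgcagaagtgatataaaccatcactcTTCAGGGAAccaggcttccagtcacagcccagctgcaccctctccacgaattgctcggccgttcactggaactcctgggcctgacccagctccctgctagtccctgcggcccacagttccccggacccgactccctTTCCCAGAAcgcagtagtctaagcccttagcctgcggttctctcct
The spelling was found on either strand in 4 of the 7 called members that the RefSeq table holds (Cish, Socs3, Lta and Tnfrsf9), and in 9.04% of the 27025 genes of the table (7.83% of its 32851 promoters). In Cish the matches begin at bases 1 and 12 after the start. A match is a description of the letters in this window.

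Socs3 had 1318, 1122 and 1164 normalized counts at 8 h, against 2429, 2996 and 2768 at 0.5 h. Its change was -1.18 (SE 0.10; limma adjusted p = 4.12e-08). Cish had 1780, 1574 and 1768 at 8 h, against 3109, 3575 and 3643 at 0.5 h (change -1.01, SE 0.11; limma adjusted p = 5.39e-06). In both genes each 0.5 h library was well above each 8 h library, and the mean at 8 h was 0.440 times the mean at 0.5 h for Socs3 and 0.496 times for Cish. Pim2, a serine/threonine kinase that promotes survival, had 494, 514 and 483 at 8 h, against 815, 954 and 987 at 0.5 h (change -0.88, SE 0.09; limma adjusted p = 7.59e-07). Socs1 had 759, 946 and 947 at 8 h, against 1345, 1681 and 1787 at 0.5 h (change -0.86, SE 0.11; limma adjusted p = 4.99e-05); Pim2 and Socs1 are given here after their values were seen. Il2ra, the IL-2 receptor alpha chain and itself a STAT5 target, was not called, at 15309, 20261 and 19775 normalized counts at 8 h, against 15719, 18001 and 16506 at 0.5 h (change 0.13, SE 0.10; limma adjusted p = 0.532). The number of called members was 6 with the replicate block, 6 without the libraries with muscle transcripts, and 5 without 8 h replicate 2, 8 h replicate 3 or 0.5 h replicate 2.

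**Figure D1:**
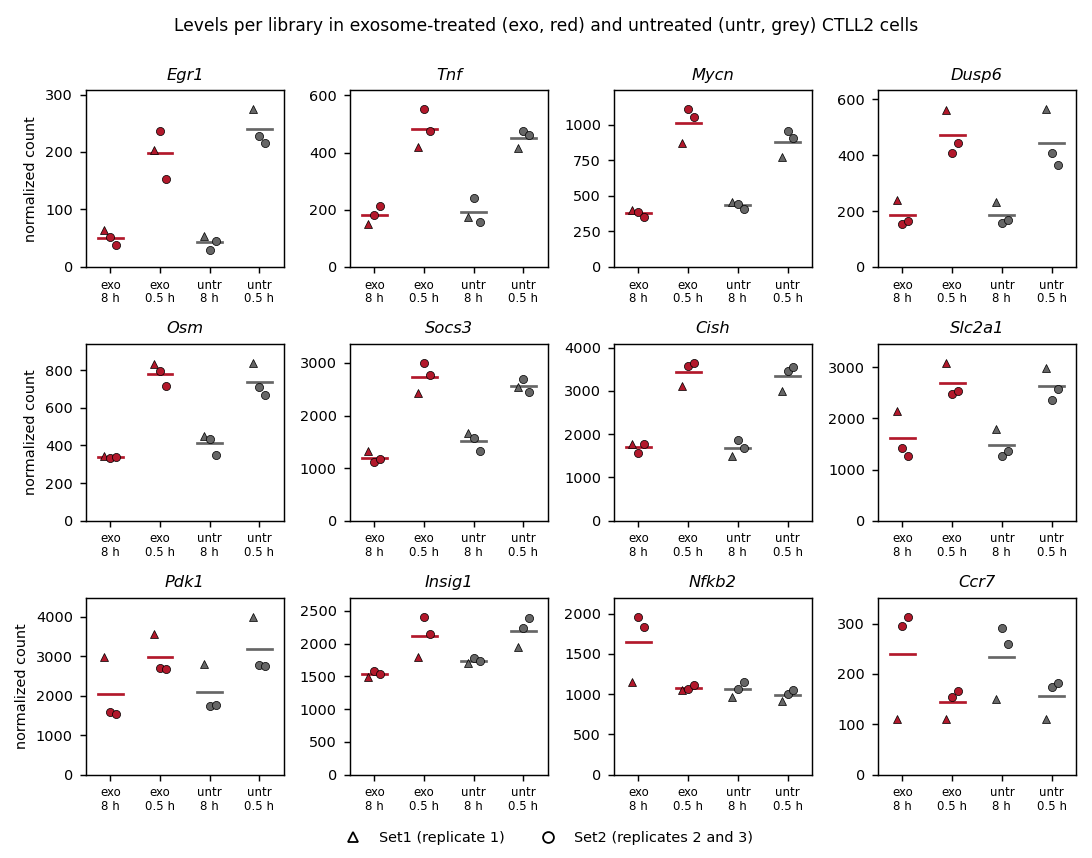
Normalized counts (vertical axis, from 0) of 12 genes in each library of exosome-treated cells (red) and untreated cells (grey), with 8 h left of 0.5 h; triangles are Set1, circles are Set2 and bars are group means (n = 3). Egr1, Tnf, Mycn, Dusp6, Osm, Socs3 and Cish are lower in every 8 h library than in every 0.5 h library, while Nfkb2 and Ccr7 are higher at 8 h mainly in the Set2 circles.

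Cytokine genes were also among the falls: 3 of 7 tested members of the cytokine and chemokine list were lower and 0 higher (median -0.55). Tnf, the founding TNF-family cytokine, had 148, 181 and 213 normalized counts at 8 h, against 418, 552 and 476 at 0.5 h (change -1.42, SE 0.13; limma adjusted p = 2.46e-07). Lta had 378, 408 and 381 at 8 h, against 732, 913 and 766 at 0.5 h (change -1.04, SE 0.22; limma adjusted p = 0.0104), and lies beside Tnf on chromosome 17. Il10, an anti-inflammatory cytokine, was low, with 37.6, 9.19 and 7.16 at 8 h, against 77.2, 35.2 and 19.9 at 0.5 h (change -1.40, SE 0.31; limma adjusted p = 0.0142), and its groups overlap, Set1 being higher than Set2 at both times. Osm and Lif, IL-6-family cytokines, are neighbours on chromosome 11 (chr11:4236420-4241026 and chr11:4257557-4272514, GRCm38). Osm had 342, 333 and 338 at 8 h, against 834, 795 and 713 at 0.5 h (change -1.20, SE 0.10; limma adjusted p = 6.27e-08). Lif had 120.2, 79.1 and 83.3 at 8 h, against 222, 205 and 211 at 0.5 h (change -1.19, SE 0.17; limma adjusted p = 0.000304). Tnf, Osm and Lif were called under every one of these checks, whereas Lta and Il10 were lost without 8 h replicate 2, 8 h replicate 3 or 0.5 h replicate 2, and Il10 with the replicate block (adjusted p = 0.0598). Neither Lta nor Il10 was called without the libraries with muscle transcripts (adjusted p = 0.0698 and 0.0715). Ifng, the cytokine interferon gamma, had 55.4, 57.9 and 59.1 at 8 h, against 84.7, 78.2 and 90.5 at 0.5 h; the groups did not overlap, but it was not called (change -0.55, SE 0.20; limma adjusted p = 0.139).

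Of 17 cytotoxic effector genes tested, 2 were lower and 0 higher, with a median of 0.04. Gzmb, the killing protease granzyme B, had 36265, 33892 and 33083 normalized counts at 8 h, against 51970, 40531 and 39685 at 0.5 h (change -0.35, SE 0.09; limma adjusted p = 0.04996, just under the threshold). Prf1, the pore protein perforin, changed by -0.33 (SE 0.08; limma adjusted p = 0.0380). The calls of both ended with the replicate block (adjusted p = 0.218 for Gzmb and 0.252 for Prf1). Gzmb was lost on leaving out any of the 6 libraries or the libraries with muscle transcripts (adjusted p = 0.4425), and Prf1 on leaving out 8 h replicates 2 or 3 or 0.5 h replicates 2 or 3.

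Of 15 tested targets of hypoxia-inducible factor (HIF), 9 were lower and 0 higher (median -0.45): Ero1l, Vegfa, Bnip3, Pdk1, Ndrg1, Kdm3a, Mxi1, Bnip3l and Egln1. Ero1l, an oxidase that forms disulfide bonds in the endoplasmic reticulum, had 8918, 3653 and 3293 normalized counts at 8 h, against 13078, 7547 and 6475 at 0.5 h (change -0.86, SE 0.14; limma adjusted p = 0.00108). Set1 was higher than Set2 at both times, so the groups overlap while each number's 8 h library is below its 0.5 h library. Pdk1, a pyruvate dehydrogenase kinase, had 2971, 1592 and 1528 at 8 h, against 3552, 2703 and 2678 at 0.5 h. Its change was -0.61 (SE 0.09, limma adjusted p = 0.000220). Vegfa, a growth factor for blood vessels, changed by -0.69 (SE 0.12; limma adjusted p = 0.00209) and Bnip3, a mitochondrial protein of mitophagy, by -0.64 (SE 0.14; limma adjusted p = 0.0131). The letters ACGTG, the core of the HIF response element, were found on either strand in 4 of the 6 called members in the promoter table (Bnip3, Egln1, Mxi1 and Vegfa), and in 20.6% of its genes. Of 17 tested genes of glycolysis and glucose uptake, 3 were lower and 0 higher (median -0.26). Slc2a1, the glucose transporter GLUT1, had 2150, 1426 and 1261 at 8 h, against 3079, 2469 and 2531 at 0.5 h (change -0.77, SE 0.13; limma adjusted p = 0.00220). The glycolytic enzymes Pfkl and Gpi1 changed by -0.56 (SE 0.09; limma adjusted p = 0.00213) and -0.46 (SE 0.08; limma adjusted p = 0.00223). Slc2a1, Ero1l and Pdk1 were called with each library left out and with the replicate block, which ended the calls of Vegfa (adjusted p = 0.0598), Bnip3 (adjusted p = 0.111), Pfkl (adjusted p = 0.0766) and Gpi1 (adjusted p = 0.111); Pfkl was also lost without the libraries with muscle transcripts (adjusted p = 0.144). Of the HIF list, 2 members were called with the block, 5 without the libraries with muscle transcripts, 4 without 8 h replicate 3, 0.5 h replicate 3 or 0.5 h replicate 2, and 5 without 8 h replicate 2.

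Sterol and fatty acid synthesis was the list with the most called members, 11 lower and 0 higher of 29 tested (median -0.27), but each change was modest, between -0.30 and -0.55. They include Fdps, Msmo1, Hsd17b7, Cyp51, Pmvk, Mvd, Lss and Sqle, enzymes along the route from mevalonate to cholesterol, and the feedback regulator Insig1. Insig1 had 1488, 1575 and 1543 normalized counts at 8 h, against 1796, 2408 and 2142 at 0.5 h (change -0.45, SE 0.07; limma adjusted p = 0.000550). The groups did not overlap. Fdps, which makes farnesyl diphosphate, changed by -0.55 (SE 0.13; limma adjusted p = 0.0252), Msmo1, a sterol oxidase, by -0.49 (SE 0.10; limma adjusted p = 0.00695) and Hsd17b7, a sterol ketone reductase, by -0.43 (SE 0.07; limma adjusted p = 0.00220). With the replicate block 1 of the list was called, Msmo1 (adjusted p = 0.0376); Insig1 and Hsd17b7 came to adjusted p of 0.0648 and 0.0528, and Fdps to 0.143. Fdps and Hsd17b7 were not called without the libraries with muscle transcripts (adjusted p = 0.1105 and 0.0949), where the list had 4 called; it had 5 without 8 h replicate 2, 8 h replicate 3 or 0.5 h replicate 3, and 6 without 0.5 h replicate 2. All 7 called members in the promoter table held CCAAT, found in 39.7% of its genes, and 0 of the 7 held the sterol response spelling TCACNCCAC, found in 1.37%. Of 19 genes of the ATF4 amino acid response, 3 were lower and 0 higher (median -0.07): Trib3, a pseudokinase, changed by -0.65 (SE 0.14; limma adjusted p = 0.0127), Chac1, which degrades glutathione, by -0.51 (SE 0.14; limma adjusted p = 0.04996) and Sesn2, a stress-induced inhibitor of mTORC1 signalling, by -0.32 (SE 0.08; limma adjusted p = 0.0246). None of the 3 was called with the block (adjusted p of 0.103, 0.216 and 0.138), nor without 8 h replicate 2, 0.5 h replicate 2 or 0.5 h replicate 3; without 8 h replicate 3, Trib3 alone of the 3 was. Chac1 and Sesn2 were also lost without the libraries with muscle transcripts (adjusted p = 0.152 and 0.1098).

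**Figure D2:**
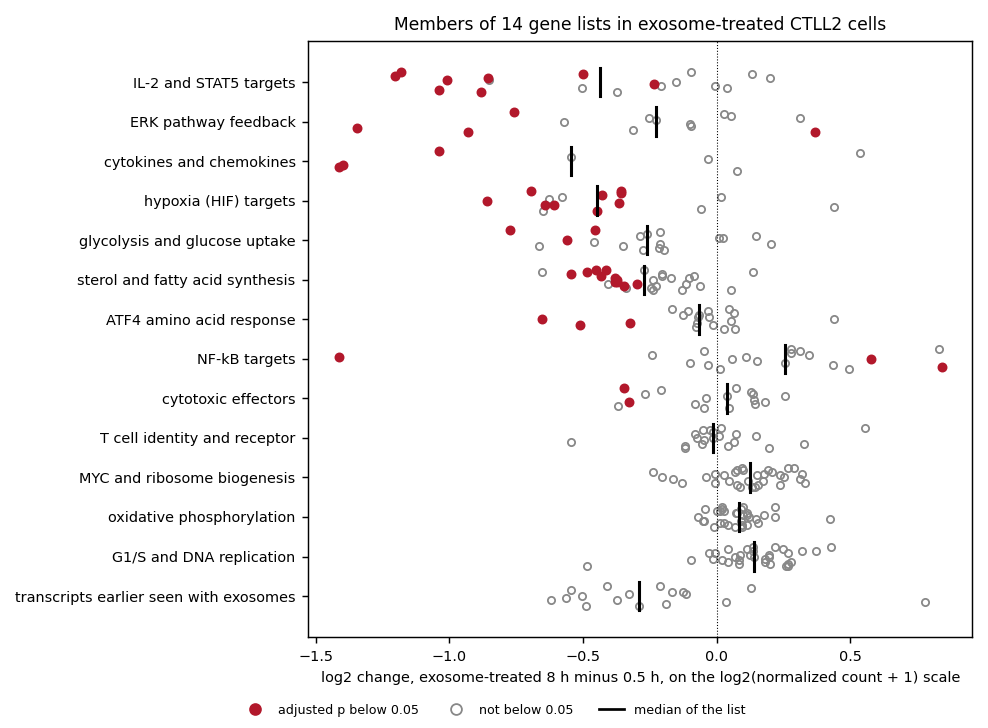
Log2 change, exosome-treated 8 h minus 0.5 h, of each tested member of 14 gene lists; filled red points passed limma adjusted p below 0.05, open points did not, and black bars are list medians. Called members lie left of 0 in the IL-2, cytokine, HIF, glycolysis, sterol and ATF4 lists, and on both sides of 0 in the ERK feedback and NF-kB lists.

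NF-kB targets were the list with the most members higher at 8 h: of 19 tested, 2 were higher and 1, Tnf, lower, with a median of 0.26. Nfkb2 encodes the NF-kB precursor p100, and Nfkbia encodes IkB alpha, the inhibitor that NF-kB itself induces. Both promoters hold the NF-kB spelling GGGNNTTTCC, in capitals here, over the same window; for Nfkb2 the first of 3 starts in the table is shown. Nfkb2 is chr19:46304487-46304766 on the plus strand and Nfkbia is chr12:55492618-55492897 on the minus strand (RefSeq, GRCm38.p6).
Nfkb2: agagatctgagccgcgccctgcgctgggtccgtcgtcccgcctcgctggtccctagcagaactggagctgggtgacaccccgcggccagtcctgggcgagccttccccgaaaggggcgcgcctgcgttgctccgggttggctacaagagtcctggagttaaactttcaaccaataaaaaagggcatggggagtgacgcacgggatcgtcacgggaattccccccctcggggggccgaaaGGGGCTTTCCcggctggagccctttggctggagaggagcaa
Nfkbia: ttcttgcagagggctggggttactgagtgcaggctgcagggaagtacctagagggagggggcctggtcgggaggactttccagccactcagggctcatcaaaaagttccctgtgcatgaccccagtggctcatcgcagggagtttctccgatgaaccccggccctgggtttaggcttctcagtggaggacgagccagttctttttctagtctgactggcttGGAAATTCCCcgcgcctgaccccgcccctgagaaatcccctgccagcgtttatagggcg
The match in Nfkbia is the reverse complement of the spelling, and the third called member, Tnf, has none; 1.8% of genes in the table have one. Nfkb2 had 1148, 1961 and 1841 normalized counts at 8 h, against 1056, 1062 and 1111 at 0.5 h, with no overlap (change 0.58, SE 0.12; limma adjusted p = 0.00827). Nfkbia had 304, 876 and 911 at 8 h, against 349, 330 and 363 at 0.5 h (change 0.84, SE 0.23; limma adjusted p = 0.04996, just under the threshold). The higher levels are mainly in replicates 2 and 3, which are Set2. In Set2 the change was 0.81 (SE 0.07) for Nfkb2 and 1.37 (SE 0.08) for Nfkbia, and in Set1 it was 0.12 (SE 0.10) and -0.20 (SE 0.12). The difference between sets was itself called for both, at limma adjusted p = 0.0109 and 9.63e-05. Relb, the partner of the Nfkb2 product, is given after its values were seen: it had 185, 571 and 589 at 8 h, against 197, 205 and 272 at 0.5 h, was not called (change 0.83, SE 0.28; limma adjusted p = 0.115), and differed between sets (limma adjusted p = 0.00911). From Set2 libraries alone, 9 of the 19 were higher and 1 lower, where 4.91% of all genes were higher and 8.56% lower. The calls of Nfkb2 and Nfkbia ended with the replicate block (adjusted p = 0.0786 and 0.173), without the libraries with muscle transcripts (adjusted p = 0.0540 and 0.136), and without 8 h replicate 2, 8 h replicate 3, 0.5 h replicate 2 or 0.5 h replicate 3.

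Of the 3 higher genes past 2-fold, Gm10015 (change 1.87, SE 0.41; limma adjusted p = 0.0132) and Gm5587 (change 1.05, SE 0.27; limma adjusted p = 0.038) are predicted genes. The third, Sema4b, a membrane semaphorin given here after its values were seen, was low, with 17.8, 24.8 and 17.0 normalized counts at 8 h, against 2.49, 7.82 and 9.94 at 0.5 h (change 1.57, SE 0.31; limma adjusted p = 0.00663). Its groups did not overlap, but replicate 1 at 0.5 h holds fewer than 3 reads, and the call ended with the replicate block (adjusted p = 0.109), without 0.5 h replicate 1 or 8 h replicate 2, and without the libraries with muscle transcripts (adjusted p = 0.179). Among more abundant genes, Ccr7, the chemokine receptor that guides T cells to lymph nodes and the called member of 11 quiescence and homing genes, had 110.8, 295 and 313 normalized counts at 8 h, against 109.6, 154 and 167 at 0.5 h (change 0.62, SE 0.16; limma adjusted p = 0.0351); its change was 0.92 in Set2 and 0.02 in Set1, and this difference was called (limma adjusted p = 0.0444). St8sia4, a polysialyltransferase, changed by 0.53 (SE 0.13; limma adjusted p = 0.0355) and Sema3a, a secreted semaphorin, by 0.51 (SE 0.12; limma adjusted p = 0.0194). Kctd12, an auxiliary subunit of GABA-B receptors in neurons, had 742, 1859 and 1827 at 8 h, against 531, 1325 and 1342 at 0.5 h. Its change was 0.47 (SE 0.09; limma adjusted p = 0.00481), and was alike in Set2 (0.47) and Set1 (0.48). Limd2 (0.45), Gtf3c6 (0.47), a subunit of RNA polymerase III factor TFIIIC, Klhl8 (0.51), Mreg (0.50), Cotl1 (0.43), an actin-binding protein, Hmgn5 (0.42), a nucleosome-binding protein, Rps6ka6 (0.41), a ribosomal S6 kinase, Shq1 (0.41), an assembly factor for small nucleolar ribonucleoproteins, Zfpm1 (0.40), a cofactor of GATA factors, and Rap2b (0.38), a small GTPase, were also called. Of the 15 genes from Ccr7 to Rap2b and Nfkb2, only Kctd12 was called with the replicate block (adjusted p = 0.0349), where 2 of all genes tested were higher. Without 8 h replicate 2, 0 of the 15 were called, as 0 of all genes tested were called higher there. This is therefore not particular to the 15. Their calls also ended without the libraries with muscle transcripts, a fit that keeps only replicate 2 of the exosome 0.5 h group. The interferon gamma response list had 1 higher and 1 lower of 22 tested (median 0.06): Gbp2, a GTPase, had 28.2, 46.9 and 48.4 normalized counts at 8 h, against 12.5, 31.3 and 25.4 at 0.5 h (change 0.86, SE 0.23; limma adjusted p = 0.0442), and Igtp, an immunity-related GTPase, changed by -0.47 (SE 0.11; limma adjusted p = 0.0229). The block ended both calls (adjusted p = 0.141 and 0.06001), as did leaving out any of 4 of the 6 libraries (0.5 h replicates 1 and 3 and 8 h replicates 2 and 3 for Gbp2, and 0.5 h replicates 2 and 3 and 8 h replicates 2 and 3 for Igtp), and leaving out the libraries with muscle transcripts (adjusted p = 0.619 and 0.147).

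The remaining genes of the largest falls have no shared list. Tph1, which starts serotonin synthesis, had 261, 164 and 174 normalized counts at 8 h, against 595, 495 and 450.4 at 0.5 h (change -1.38, SE 0.15; limma adjusted p = 3.53e-06), and was called under all checks above. Rgs11, a regulator of G protein signalling, had 503, 103 and 124 at 8 h, against 700, 462 and 458 at 0.5 h (change -1.50, SE 0.29; limma adjusted p = 0.00552). The fall was 2.01 in Set2 and 0.48 in Set1, a difference that was called (limma adjusted p = 0.00448). Spocd1 (-1.42), Gipr (-1.32), the receptor of the gut hormone GIP, Ankrd35 (-1.23), C3 (-1.11), a complement protein, and Neil2 (-1.10), a DNA repair glycosylase, were likewise lower in both sets, with a larger fall in Set2; the difference between sets was called for Spocd1, Gipr and Neil2 (limma adjusted p = 0.00816, 0.0117 and 0.0321) and not for Ankrd35 and C3. Of Rgs11, Spocd1, Gipr, Ankrd35, C3 and Neil2, only Ankrd35 was called with the block (adjusted p = 0.0422), and Ankrd35 and Neil2 were lost without the libraries with muscle transcripts (adjusted p = 0.0905 and 0.0642). Without 8 h replicate 2 or 0.5 h replicate 3, Rgs11, Spocd1 and Neil2 were not called; Spocd1 and Neil2 were also lost without 0.5 h replicate 2, and Neil2 without 8 h replicate 3. Dnm1, a dynamin GTPase given after its values were seen (change -2.33, SE 0.41; limma adjusted p = 0.00254), had 73.2, 0.919 and 4.48 at 8 h, against 184, 17.6 and 27.6 at 0.5 h, and its Set1 library was the highest of its group at both times. Its change depended on the pseudocount, at -1.66 with a pseudocount of 5, since 8 h replicate 2 holds fewer than 3 reads. Without the libraries with muscle transcripts Dnm1 was not called (adjusted p = 0.138).

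In 21 of the 35 lists described, 0 members were called by limma, which at 2.33% of all genes called says little of a list of this size, and over all 597 tested list genes 5 were higher and 44 lower (8.21% called). The 20 genes of T cell identity and receptor had a median of -0.01, the 17 T cell transcription factors 0.10, the 8 inhibitory receptors -0.17 and the 8 genes of IL-12 signalling 0.05. Il12rb2, an IL-12 receptor chain, had 2717, 3356 and 3059 normalized counts at 8 h, against 2459, 2716 and 2561 at 0.5 h (change 0.23, SE 0.13; limma adjusted p = 0.329). Ptpn11, the phosphatase SHP2, had 2851, 4292 and 3978 at 8 h, against 2688, 3856 and 3679 at 0.5 h (change 0.12, SE 0.06; limma adjusted p = 0.325). Growth lists had medians near 0: 0.12 for 32 genes of MYC and ribosome biogenesis, 0.10 for 30 of the mitochondrial ribosome and import, 0.08 for 32 of oxidative phosphorylation, 0.14 for 32 of G1/S and DNA replication and 0.10 for 32 of G2/M and mitosis, with 0 called in each. From Set2 libraries alone, 10, 5, 4, 14 and 5 of these were higher, and 1 of the last list lower. In that fit 4.91% of all genes tested were higher and 8.56% lower. The unfolded protein response (18 genes, median 0.16) and heat shock (14 genes, median 0.18) also had 0 called, against 11 and 8 higher from Set2 libraries alone. Among 30 cytosolic ribosomal proteins, Rpl10a alone was called (change -0.65, SE 0.18; limma adjusted p = 0.04996), with a list median of 0.01; how reads shared with near-identical copies were counted is not stated. The call ended with the block (adjusted p = 0.167), without the libraries with muscle transcripts (adjusted p = 0.0526) and on leaving out any library but 8 h replicate 1. The p53 list had 1 of 16 lower, Sesn2. The lists for type I interferon response (0.08), LXR targets (-0.16), NRF2 and metal response (-0.04), arrestins and circadian genes (-0.14), replication-dependent histones (-0.14), the BCL-2 family (0.00), TGF-beta targets (0.11), tyrosine phosphatases (0.02) and melanocyte transcripts (-0.16) had the medians given and 0 called.

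Transcripts earlier seen with the exosomes showed no called change. The list of 17 had been chosen on these same libraries, so it is no independent evidence of their source; 0 were called, and the median was -0.29. Tyrp1, a melanin-synthesis enzyme of pigment cells, had 18.8, 48.7 and 40.3 normalized counts at 8 h, against 14.95, 76.3 and 64.0 at 0.5 h (change -0.33, SE 0.45; limma adjusted p = 0.754), and was listed at 0 in all untreated libraries at 8 h and 0.5 h. Dct, another melanin-synthesis enzyme, had 23.0, 19.3 and 20.6 at 8 h, against 12.5, 29.3 and 35.3 at 0.5 h (change -0.16, SE 0.40; limma adjusted p = 0.874). Maf, a transcription factor, had 82.6, 50.6 and 31.3 at 8 h, against 57.3, 80.2 and 82.8 at 0.5 h (change -0.50, SE 0.62; limma adjusted p = 0.720). For all 3, both Set2 libraries were lower at 8 h and the Set1 library higher. The list median was -0.66 in Set2 and 0.52 in Set1; replicate 1 at 0.5 h is the shallowest library.

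**Figure D3:**
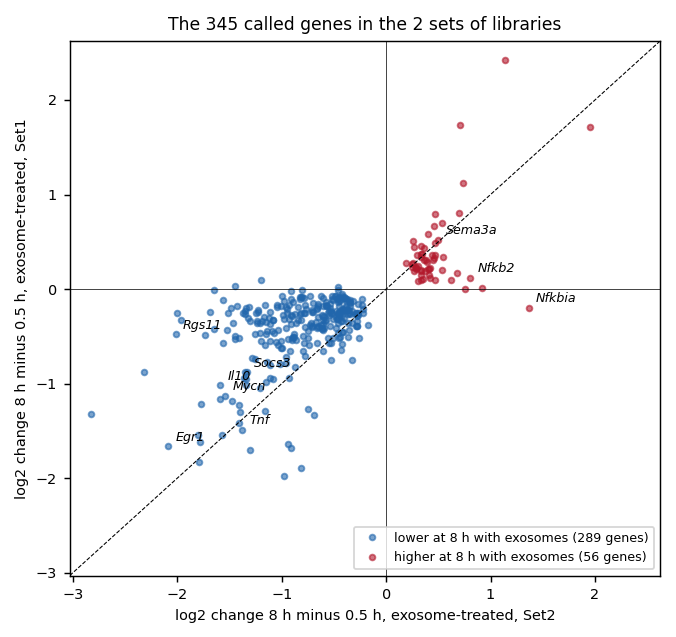
Log2 change, 8 h minus 0.5 h, of the 345 called genes in exosome-treated Set2 libraries (horizontal axis) and Set1 libraries (vertical axis); blue genes are lower at 8 h, red genes higher, and the dashed line marks equal change. Most lower genes lie above the dashed line, with a larger fall in Set2, and Nfkbia lies below 0 in Set1. Set2 also supplies most of the exosome libraries on which these genes were called.

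The change was larger in Set2 than in Set1 for 253 of the 289 lower genes and 36 of the 56 higher genes, as a description. Set2 supplies more of the libraries in each group than Set1, so calling genes on both together can itself favour larger changes in Set2. The share over all genes tested is not given here. These shares therefore cannot tell a stronger response in Set2 from the way the genes were chosen. The change in Set2 minus the change in Set1 was called for 165 of 14828 genes (1.11%), 18 higher (0.121%) and 147 lower (0.991%), and 30 of these were among the 345. Set1 is 1 library at each time, so its change has no replicate of its own and its error is borrowed from the other groups. Set and replicate number 1 coincide here and cannot be told apart.

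Untreated cells were compared over the same interval to ask which changes also occurred with fresh medium alone. There 4154 genes were called, 2001 higher (13.5%) and 2153 lower (14.5%). The count was 1928 without untreated 0.5 h replicate 2, 2140 without untreated 8 h replicate 1, 1778 without untreated 8 h replicate 2, and 552 without the libraries with muscle transcripts. Of the 345 genes called in exosome-treated cells, 247 were also called in the same direction in untreated cells, which is 71.6% of the exosome calls and 5.95% of the untreated calls. By direction these were 24 of the 56 higher and 223 of the 289 lower genes; 1 gene was called in the opposite direction. The difference between the exosome and the untreated change was called for 0 genes (0%) by limma and by edgeR, and for 7 by DESeq2, with 2562 genes (17.3%) at an unadjusted limma p below 0.05; without untreated 8 h replicate 3, 1926 genes were called.

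Several named falls were close to those in untreated cells. Tnf changed by -1.26 in untreated cells (SE 0.13), Cish by -0.99 (SE 0.11), Dusp6 by -1.25 (SE 0.14) and Slc2a1 by -0.85 (SE 0.13), each called there too. Other genes stood further from their untreated change, although no difference passed adjustment. Egr1 changed by -1.95 in exosome-treated and -2.49 in untreated cells (limma difference 0.54, unadjusted p = 0.12, adjusted p = 0.386). Socs3 changed by -1.18 in exosome-treated and -0.76 in untreated cells (limma difference -0.42, unadjusted p = 0.00490, adjusted p = 0.241). Socs1 changed by -0.86 with exosomes and -0.40 without (limma difference -0.46, unadjusted p = 0.00699, adjusted p = 0.241). Il10 changed by -1.40 with exosomes and -0.14 without (limma difference -1.26, unadjusted p = 0.00750, adjusted p = 0.244). Nfkb2 changed by 0.58 with exosomes and 0.10 without (limma difference 0.48, unadjusted p = 0.00831, adjusted p = 0.246), and Sema3a by 0.51 and -0.06 (limma difference 0.57, unadjusted p = 0.00222, adjusted p = 0.241). The IL-2, HIF and sterol lists had medians of -0.44, -0.45 and -0.27 with exosomes, against -0.45, -0.48 and -0.25 without. Oxidative phosphorylation had 0 of 32 called with exosomes, where 2.33% of all genes tested were. Without exosomes 29 of 32 were higher (median 0.43), against 13.5% of all genes tested. Of the differences, 20 of 32 were at an unadjusted limma p below 0.05, against 17.3% of all, and 0 passed adjustment. Beside this stand the muscle transcripts of untreated 8 h replicates 1 and 2. Without those libraries only replicate 3 of the untreated 8 h group remains, and the part of these transcripts was not tested. The share of normalized counts on 30 ribosomal protein genes was 1.58%, 1.25% and 1.05% in untreated 8 h replicates 1, 2 and 3. At exosome 8 h it was 0.997% to 1.03%. The higher shares are thus in the untreated libraries with muscle transcripts, and replicate 3 lies close to the exosome range.

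**Figure D4:**
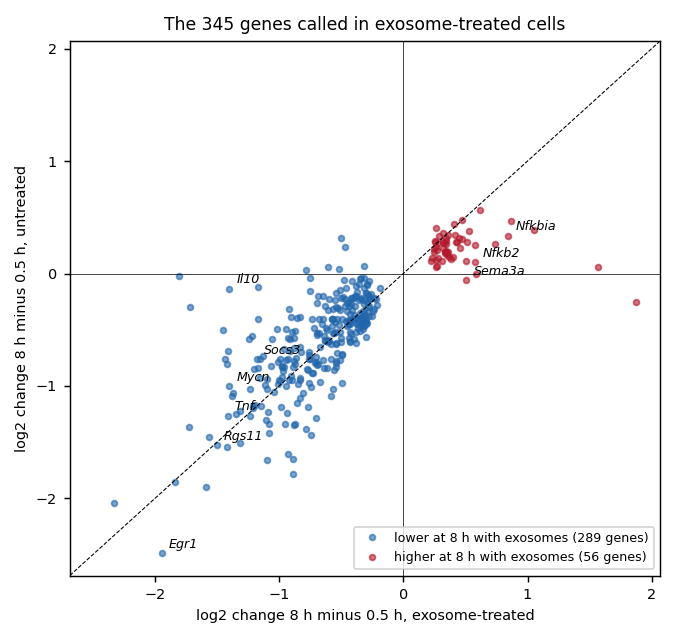
Log2 change, 8 h minus 0.5 h, of the 345 called genes in exosome-treated cells (horizontal axis) and in untreated cells (vertical axis), with the dashed line marking equal change; blue genes are lower and red genes higher at 8 h with exosomes. Most lower genes lie near the line, while Il10, Nfkb2 and Sema3a lie nearer 0 in untreated cells.

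The intermediate times show when the levels moved. With exosomes, Egr1 averaged 198 ± 41.5, 72.8 ± 5.54, 46.4 ± 7.597 and 51.0 ± 13.1 normalized counts at 0.5, 2, 4 and 8 h (SD, n = 3 each). Most of the fall was thus present at 2 h, as it was for Mycn, which averaged 1014 ± 124, 502 ± 67.5, 390 ± 56.6 and 381 ± 23.6, and for Socs3, at 2731 ± 285, 1423 ± 241, 1239 ± 49.97 and 1202 ± 103. Slc2a1 was lowest at 2 h, at 2693 ± 336, 1025 ± 145, 1133 ± 465 and 1612 ± 473. Nfkbia averaged 347 ± 16.9, 497 ± 146, 776 ± 352 and 697 ± 341 with exosomes, and 333 ± 43.8, 380 ± 43.1, 417 ± 11.6 and 418 ± 21.6 in untreated cells; with exosomes the Set1 library was at 329, 370 and 304 at 2, 4 and 8 h, while the Set2 libraries lay between 574 and 588, between 973 and 985, and between 876 and 911. The levels at 2 and 4 h are given as a description.

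**Figure D5:**
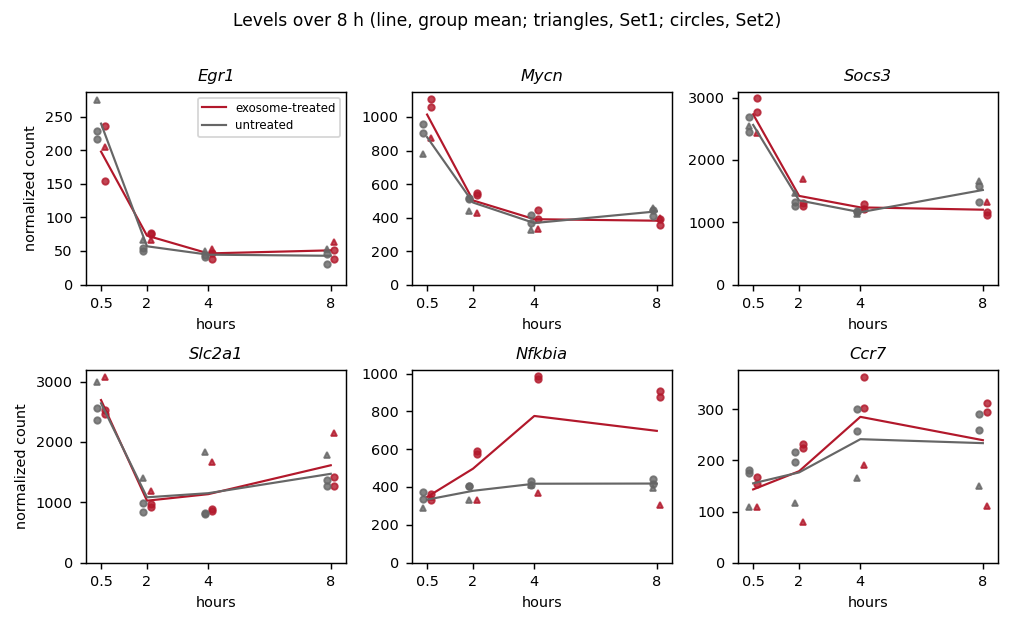
Normalized counts (vertical axis, from 0) at 0.5, 2, 4 and 8 h (horizontal axis) for 6 genes in exosome-treated (red) and untreated (grey) cells; lines join group means (n = 3), triangles are Set1 and circles are Set2. Egr1, Mycn and Socs3 drop by 2 h in both treatments, and the exosome-treated Nfkbia circles lie above the triangles from 2 h on.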

How the data were processed

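RNA was extracted with TRIzol and made into libraries with the TruSeq RNA Kit V2, read as pairs of 50 bases, per the labels' protocols. Per the submitters' processing notes, tools included STAR 2.4.2, featureCounts 1.5.0 and DESeq2, with the GRCm38.p2 build; their settings are not stated. The kit does not mark strand, so overlapping antisense genes cannot be told apart. The deposited table holds the authors' normalized counts, a signal of read counts divided by a size factor per library; 100% of values came out as whole reads within 0.01 read, and edgeR on those reads called 37 genes higher and 250 lower. Gene symbols came from GENCODE M21.

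Genes reaching 10 normalized counts in 3 or more libraries were fitted with limma 3.58.1 (trend) on log2(value + 1), with group means and batch over all 28 libraries (18 residual degrees of freedom), which share the spread. edgeR 4.0.16, DESeq2 1.42.0, other scalings, filters and left-out libraries were alternatives. The members and lists were chosen with earlier results of these data known. Named genes were up to 15 called genes per direction with the largest change (mean of at least 100 over the 6 libraries, same direction in both sets, no predicted genes or pseudogenes), up to 4 called members per list with the largest change (2 with the smallest p where none is called) and 10 fixed genes, except where said. Samples of the same replicate number deviated from their group means together. The correlation was 0.713, 0.557 and 0.550 for exosome pairs 1, 2 and 3, over 10113 genes. The replicate block takes the numbers as pairs. Number 1 is the Set1 library of each of these groups. Within Set2, libraries of different numbers correlated as well (0.404 and 0.584), so pairing beyond Set is not shown. For promoters, 12 spellings were searched on both strands; TTCCNGGAA, TCACNCNAC, GGGANTTTCC, TGACGTCA, TGACGT, CCNNNNNNGG and CCGGAAGT are not described. Some genes are not reported by name here.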

Additional observations from a re-analysis of the deposited data

How the results depend on the processing

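The count of called genes between exosome-treated 8 h and 0.5 h was 345. It came to 23 with no batch term, 1997 from Set2 libraries alone, 136 from the 12 libraries at 0.5 and 8 h, and 68 to 1164 on leaving out each exosome library. Chosen after seeing the data, 12 exosome libraries alone gave 208 and leaving out libraries with muscle transcripts gave 63 (1 exosome 0.5 h library then remains, whose spread is taken from the other groups). With the replicate block the count was 44, over 12 libraries, and the untreated and difference counts stayed within 1.5 times. The untreated count of 4154 came to 1349 with no batch term, 552 without the libraries with muscle transcripts, and 1778 to 5216 on leaving out each untreated library. The difference between treatments, 0 genes, came to 7 by DESeq2, 2 from Set2 alone and 0 to 1926 on leaving out libraries. Other alternatives kept all 3 counts within 1.5 times. These were edgeR, DESeq2 for the exosome and untreated counts, pseudocounts of 0.5 and 5, no filter, a mean of 100, TMM and no trend. A like count need not hold the same genes. Of the 56 higher and 289 lower genes, edgeR kept 37 and 243, and DESeq2 51 and 276. St8sia4, Cotl1, Rps6ka6, Rap2b, Gbp2, Chac1 and Rpl10a were not called by edgeR (adjusted p from 0.0507 to 0.114). Values that turned direction were all uncalled: Acta1 0.50 without the libraries with muscle transcripts, Dct -0.64 to 0.12 on leaving out libraries, and Gpr137b, 0.78 in all, -0.25 by edgeR, -0.36 from Set2, -0.98 without the libraries with muscle transcripts and -0.65 to 1.60 on leaving out libraries. The causes were not tested. Over the alternatives of all named genes, 1912 values kept direction and side of the threshold, 350 lost the call, 82 gained it and 6 turned. Set1 has 1 library at each time, which limits what batch-specific changes can show.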
